A study of Homo sapiens with 2 samples.

Results

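The REST repressor complex and the regulators of neuronal splicing were followed as 10 genes, chosen by name, among 26447 gene symbols measured by RNA sequencing. The 10 genes are REST, its corepressors RCOR1, RCOR2 and RCOR3, the splicing activators SRRM3 and SRRM4, the splicing repressors PTBP1 and PTBP2, and the RNA-binding regulators RBFOX2 and CELF3. All 10 were listed in both libraries, and 9 of them reached a mean of 1 CPM (a TMM-scaled read count relative to library size) over both libraries, the level above which genes were compared. The remaining one was SRRM4.

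The shNRP2 library came from cells of C4-2B ENZR, a line of human prostate cancer that is established in culture and resistant to the androgen receptor antagonist enzalutamide. They carried a lentiviral hairpin against the coding region of NRP2 after antibiotic selection. The shControl library came from C4-2B ENZR cells that carried a non-targeting hairpin and went through the same selection. Both were grown with 20 µM enzalutamide. There is 1 library in each group and 1 hairpin sequence against NRP2 is described, so nothing measures the spread between cultures, the conditions are compared without p-values, and the differences hold for these 2 libraries. The 95% intervals given below cover counting error of reads only. Copies made by PCR cannot be told from separate molecules here, so the intervals may be too narrow even for that.

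The shNRP2 library held 22992304 reads on genes and the shControl library 21052178. NRP2, the targeted gene, which encodes a semaphorin and VEGF co-receptor, had 7 reads in the shNRP2 library and 20 in the shControl library, which is 0.330 CPM in the shNRP2 library and 0.974 CPM in the shControl library. Its CPM was 2.95-fold lower in the shNRP2 library (95% counting interval 1.20 to 8.26), a check of the hairpin that rests on few reads. Of 8 luminal prostate markers, all 8 were above the level filter and together stood at 3186 CPM in the shNRP2 library and 2945 CPM in the shControl library. With the deposited scaling, 1 of the 8 markers was past 1.5-fold higher and 0 lower, beside 5.78% and 3.57% of all compared genes. With equal totals or quantile normalization these counts were 0 higher and 1 lower, and with log2 ratios centred on a median of 0 they were 1 and 1. TMPRSS2, an androgen-induced protease of luminal cells and the marker past 1.5-fold with the deposited scaling, was at 181 CPM in the shNRP2 library and 117 CPM in the shControl library. FOXA1, a pioneer factor of that lineage that lay just inside 1.5-fold lower, was at 302 CPM in the shNRP2 library and 453 CPM in the shControl library. The cytokeratin KRT8 was at 616 CPM in the shNRP2 library and 457 CPM in the shControl library. Of 12 markers of fibroblasts, leukocytes, endothelium, glia and neurons, 5 were above the filter and none passed 1.5-fold, beside the same shares over all compared genes. The sum over all 12 was 67.5 CPM in the shNRP2 library and 72.8 CPM in the shControl library. COL1A1, a fibroblast marker, held 32.5 CPM of it in the shNRP2 library and 41.5 CPM in the shControl library. DCN, another fibroblast marker, was at 0 in both and was chosen after its value was seen. Among the 5 compared, CD68, COL1A1 and COL1A2 had the largest changes, with log2 changes of 0.51, -0.34 and -0.14.

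REST is a zinc finger repressor that binds a DNA element, RE1, near neuronal genes and keeps them off in non-neuronal cells. It does so with corepressors, among them SIN3 proteins and the RCOR (CoREST) proteins, which bring histone deacetylases and the demethylase KDM1A. Neuronal transcripts also depend on splicing: PTBP1 blocks neural exons outside neurons, whereas SRRM4 and SRRM3 promote short neural exons. In neuroendocrine prostate cancer, SRRM4 is known for making a truncated REST isoform. Gene-level values hold no isoforms, so none of the splicing events described as background was measured.

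SRRM3 and RCOR2 were the members that differed most, and both were higher in the shNRP2 library. The other 7 compared members, REST itself included, lay within 1.5-fold. Changes are given as log2((shNRP2 CPM + 1)/(shControl CPM + 1)), which understates the change of low genes, and the threshold for calling a gene was 1.5-fold on that scale. By this count 2 of 9 members were higher and 0 lower. Among all 13316 compared genes, 769 (5.78%) were higher by at least 1.5-fold and 476 (3.57%) lower. An exact binomial test on recovered reads, which compares these libraries and not the conditions and asks for no size of change, called 4 members higher and 2 lower at an adjusted threshold of 0.05. It called 30.2% of all compared genes higher and 22% lower, 52.2% in all. With libraries set to equal totals, the count over all genes was 587 higher and 646 lower, so the share of higher genes among those past 1.5-fold was 47.6%, against 61.8% with the deposited scaling. The same 2 members were past 1.5-fold under both scalings. Genes at the level of SRRM3 and RCOR2 passed more often: of 1135 genes with a mean of 5 to 10 CPM, a range chosen after the members' values were seen, 11.8% passed it on the higher side and 7.22% on the lower side. The median log2 change was 0.16 over the 9 compared members and 0.03 over all compared genes.

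**Figure D1:**
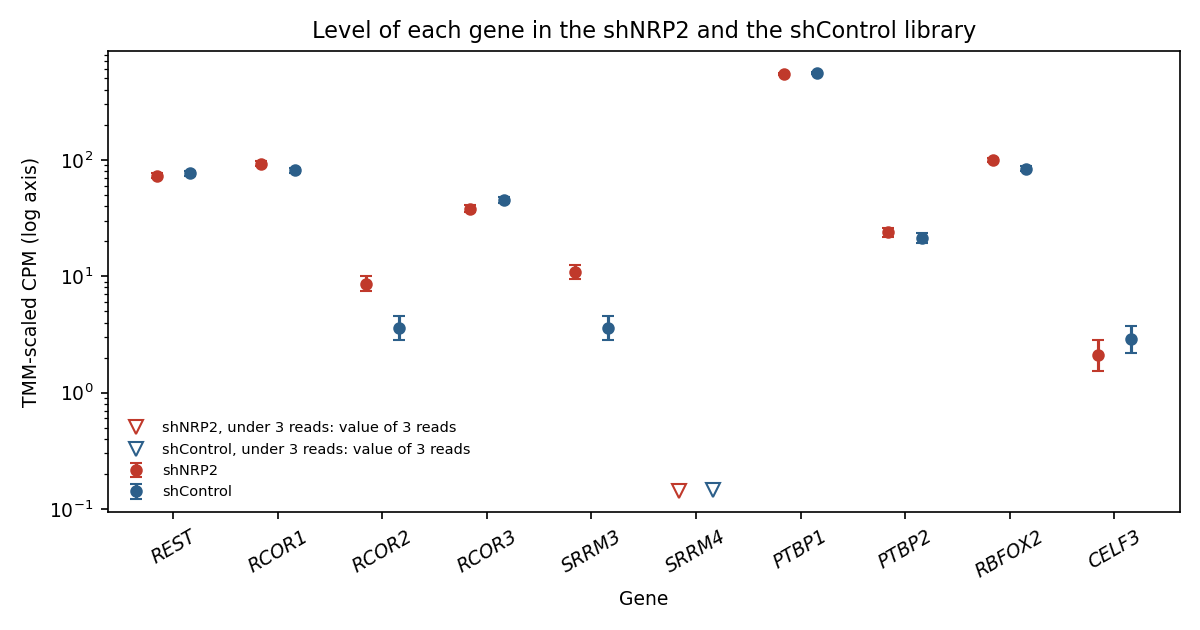
TMM-scaled CPM (log axis) of the 10 genes in the shNRP2 library (red, left) and the shControl library (blue, right), with 95% Poisson counting intervals and 1 library in each group. SRRM3 and RCOR2 are higher in shNRP2 with intervals that do not overlap, and SRRM4, with under 3 reads in both, is drawn as open triangles at the value of 3 reads.

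REST, the repressor, was at 73.1 CPM in the shNRP2 library (1550 reads) and 76.9 CPM in the shControl library (1580 reads). The ratio was 0.950 with a counting interval from 0.885 to 1.02, so with the deposited scaling the difference was not detectable at this depth. On the log2 scale the change was -0.07, and 35.4% of compared genes had a lower one. With equal library totals the log2 change of REST was -0.15. No counting interval was computed for that scaling, so the reading of REST as undetectably different holds for the deposited scaling only. Exons of REST overlap those of NOA1 on the other strand in GENCODE release 29. NOA1 was at 92.0 CPM in the shNRP2 library and 72.8 CPM in the shControl library. No source used here states whether counting used strand, so reads in that overlap cannot be assigned.

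RCOR1, the founding CoREST protein, was at 92.7 CPM in the shNRP2 library and 81.2 CPM in the shControl library. Its ratio was 1.14 (1.07 to 1.22) and its log2 change 0.19. RCOR3, a related corepressor, went the other way, with 38.0 CPM in the shNRP2 library and 45.1 CPM in the shControl library. Its ratio was 0.843 (0.766 to 0.928) and its log2 change -0.24. Both intervals excluded 1, and both differences stayed well within 1.5-fold.

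RCOR2, the CoREST protein known in mice for its expression in stem cells and neural progenitors, was at 8.63 CPM in the shNRP2 library (7.43 to 9.98) and 3.60 CPM in the shControl library (2.83 to 4.52). These levels rest on 183 reads in the shNRP2 library and 74 in the shControl library. RCOR2 was 2.40-fold higher (1.82 to 3.18), with a log2 change of 1.07, and 148 of 13316 compared genes had a log2 change at least as high. Within the 3 RCOR genes, RCOR2 took 6.19% of reads in the shNRP2 library (exact binomial interval 5.35 to 7.13) and 2.77% in the shControl library (2.18 to 3.47). RCOR3 took 27.3% in the shNRP2 library (25.7 to 28.9) and 34.7% in the shControl library (32.9 to 36.5). RCOR1 held the largest part, 66.5% in the shNRP2 library and 62.5% in the shControl library. The summed RCOR level was 139 CPM in the shNRP2 library and 130 CPM in the shControl library. The RCOR mixture thus had more RCOR1 and RCOR2 and less RCOR3 in the shNRP2 library, at a sum that differed little. These shares are of reads, so longer transcripts weigh more, equally in both libraries.

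**Figure D2:**
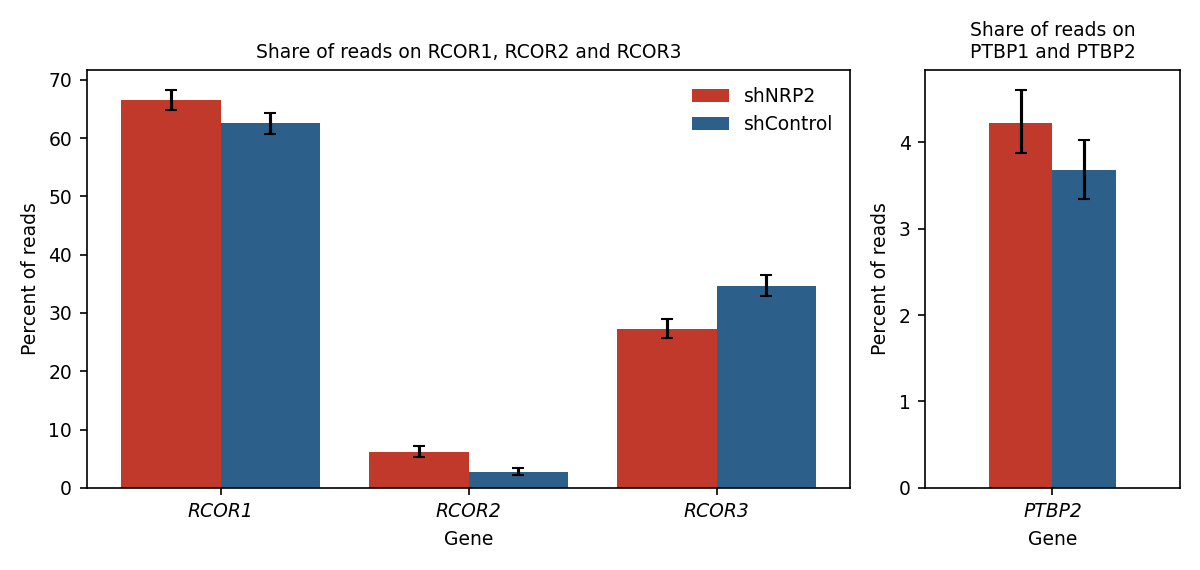
Percent of reads on each RCOR gene among RCOR1, RCOR2 and RCOR3 (left) and on PTBP2 among PTBP1 and PTBP2 (right) in the shNRP2 library (red) and the shControl library (blue), with exact binomial 95% intervals. RCOR2 is at 6.19% in shNRP2 and 2.77% in shControl. PTBP2 is at 4.23% in shNRP2 and 3.68% in shControl, and overlap of its intervals is not a test of the difference.

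Among the other subunits that work with REST and the RCOR proteins, none passed 1.5-fold. Of 20 corepressor genes, all 20 were compared and 0 were past 1.5-fold in either direction, with 11 changes above 0 and 9 below and a median log2 change of 0.03, equal to that of all genes at this rounding. So few genes pass 1.5-fold overall (5.78% higher and 3.57% lower) that 0 of 20 is near that background. The binomial test on reads, which asks for no size of change, called 7 of them higher and 5 lower, against 30.2% and 22% of all compared genes. PHF21A, a histone reader of the KDM1A complex, had the largest change of the 20, with 57.3 CPM in the shNRP2 library and 40.3 CPM in the shControl library (log2 0.50). SMARCE1, a subunit of SWI/SNF remodellers, was at 123 CPM in the shNRP2 library and 170 CPM in the shControl library (log2 -0.47). SMARCC2, of the same remodellers, was at 137 CPM in the shNRP2 library and 173 CPM in the shControl library (log2 -0.34). KDM1A, the demethylase bound by RCOR proteins, was at 170 CPM in the shNRP2 library and 162 CPM in the shControl library. The deacetylases HDAC1 and HDAC2 had log2 changes of 0.09 and 0.15. KDM1A, HDAC1 and HDAC2 were chosen for their role beside RCOR proteins after their values were seen.

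Of 8 genes tied to the stability of REST protein, 0 were past 1.5-fold, which is near the 5.78% higher and 3.57% lower of all compared genes for a list of this size. The binomial test on reads called 5 of them higher and 1 lower, against 30.2% and 22% of all compared genes. The median log2 change was 0.14, with 6 above 0 and 2 below. USP15, a deubiquitinase of newly made REST, was at 84.4 CPM in the shNRP2 library and 72.0 CPM in the shControl library. TERF2, a telomere protein that binds REST, was at 41.7 CPM in the shNRP2 library and 36.6 CPM in the shControl library. SKP1, a subunit of the SCF ubiquitin ligase that degrades REST, was at 249 CPM in the shNRP2 library and 223 CPM in the shControl library. REST protein was not measured.

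SRRM3, a splicing activator of short exons in neurons and endocrine cells and the paralog of SRRM4, was at 10.9 CPM in the shNRP2 library (9.54 to 12.4) and 3.60 CPM in the shControl library (2.83 to 4.52). These levels rest on 231 reads in the shNRP2 library and 74 in the shControl library. SRRM3 was 3.02-fold higher (2.32 to 3.98), with a log2 change of 1.37, and 69 of 13316 compared genes had a log2 change at least as high. At 2-fold, where SRRM3 and RCOR2 both remained, 1.46% of all compared genes were higher and 0.526% lower. Of the genes with a mean of 5 to 10 CPM, 2.73% were at least 2-fold higher.

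SRRM4, the activator best known from neuroendocrine prostate cancer, had 1 read in the shNRP2 library and 0 in the shControl library. The single read is worth 0.0472 CPM, with an interval from 0.00119 to 0.263 CPM, and 0 reads allow up to 0.146 CPM in the shControl library at a floor of 3 reads, or up to 0.180 CPM by the same kind of interval. No fold is given, since both libraries are under that floor. SRRM1 and SRRM2, general splicing coactivators of the same protein family name, were at 159 and 493 CPM in the shNRP2 library and at 151 and 518 CPM in the shControl library. They were chosen after their values were seen. Neither passed 1.5-fold.

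The promoter of SRRM3 is shown because SRRM3 had the largest change of the members, and that of SYN1 because it holds the RE1 core letters. Both are RefSeq windows of 300 bases, 250 before and 50 after the annotated start, on build GRCh38.p14. The capitals mark CAGCACC or GGACAG, letters of the left and the right part of the RE1 element, on either strand. The window of SRRM3 is chr7:76201646-76201945, plus strand, and that of SYN1 is chrX:47619808-47620107, minus strand.
SRRM3: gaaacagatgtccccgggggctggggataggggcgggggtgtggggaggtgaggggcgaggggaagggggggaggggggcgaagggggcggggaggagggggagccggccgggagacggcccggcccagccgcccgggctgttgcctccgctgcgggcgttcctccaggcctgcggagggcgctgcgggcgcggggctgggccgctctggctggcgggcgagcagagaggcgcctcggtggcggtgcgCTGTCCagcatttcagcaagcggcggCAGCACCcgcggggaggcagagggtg
SYN1: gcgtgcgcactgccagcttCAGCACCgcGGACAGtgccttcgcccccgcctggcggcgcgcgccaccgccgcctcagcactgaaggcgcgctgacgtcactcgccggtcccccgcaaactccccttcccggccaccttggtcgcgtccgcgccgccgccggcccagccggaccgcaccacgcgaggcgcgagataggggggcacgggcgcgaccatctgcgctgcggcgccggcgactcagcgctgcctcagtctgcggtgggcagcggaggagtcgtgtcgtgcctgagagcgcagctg
In SYN1 both parts stand on the strand shown, at positions 20 and 29 counted from 1 at the 5′ end, and make up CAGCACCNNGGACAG. In SRRM3 the right part is on the opposite strand at position 249 and reads CTGTCC as printed, and the left part is on the strand shown at position 275, so the full core is not there.

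Promoter windows were listed for 8 of the 10 members, and not for RCOR2 and RBFOX2. The letters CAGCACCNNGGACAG, searched on both strands, were in 0 of the 11 windows of those 8 members and in 18 of 35116 windows of all genes (0.0513%). Of 58 windows of 32 genes listed below as REST targets, 1 held them, that of SYN1. With so rare a match, 0 of 11 does not tell whether the members have an RE1 element. CAGCACC alone, which is part of that core, was in 4 member windows, of PTBP1, RCOR3, SRRM3 and SRRM4, and in 7.75% of all windows. GGACAG alone, also part of the core, was in 3 member windows, of RCOR1, REST and SRRM3, and in 20.5% of all windows. SRRM3 was the member with both in 1 window, and 1.98% of all windows held both. These matches describe letters and not binding, which was not measured. SYN1, the synaptic vesicle protein synapsin I, had 1 read in the shNRP2 library and 0 in the shControl library.

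PTBP1, the polypyrimidine tract protein that blocks neural exons, was the most abundant member, with 542 CPM in the shNRP2 library and 560 CPM in the shControl library. Its ratio was 0.967, with an interval from 0.942 to 0.992 that excludes 1. PTBP1 had 11483 reads in the shNRP2 library and 11504 in the shControl library, and a log2 change of only -0.05. PTBP2, the paralog that takes over in developing neurons, was at 23.9 CPM in the shNRP2 library and 21.4 CPM in the shControl library. Its ratio was 1.12 (0.983 to 1.27), a difference not detectable at this depth. PTBP2 took 4.23% of the reads of both paralogs in the shNRP2 library (3.88 to 4.60) and 3.68% in the shControl library (3.35 to 4.03). These intervals overlap. PTBP3, another PTBP protein, added once its value had been seen, was at 109 CPM in the shNRP2 library and 104 CPM in the shControl library.

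RBFOX2, an RNA-binding protein that promotes or blocks exons according to where it binds, was at 99.2 CPM in the shNRP2 library and 83.8 CPM in the shControl library. Its ratio was 1.18 (1.11 to 1.26) and its log2 change 0.24. Its neuronal relatives were low: RBFOX1 was at 0 reads in both libraries, and RBFOX3 had 10 reads in the shNRP2 library and 16 in the shControl library. Both were chosen after their values were seen. CELF3, an RNA-binding protein of neural tissue, was at 2.12 CPM in the shNRP2 library (1.55 to 2.84) and 2.87 CPM in the shControl library (2.19 to 3.71). CELF3 had 45 reads in the shNRP2 library and 59 in the shControl library, and a ratio of 0.739 (0.490 to 1.11), a difference not detectable at this depth.

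**Figure D3:**
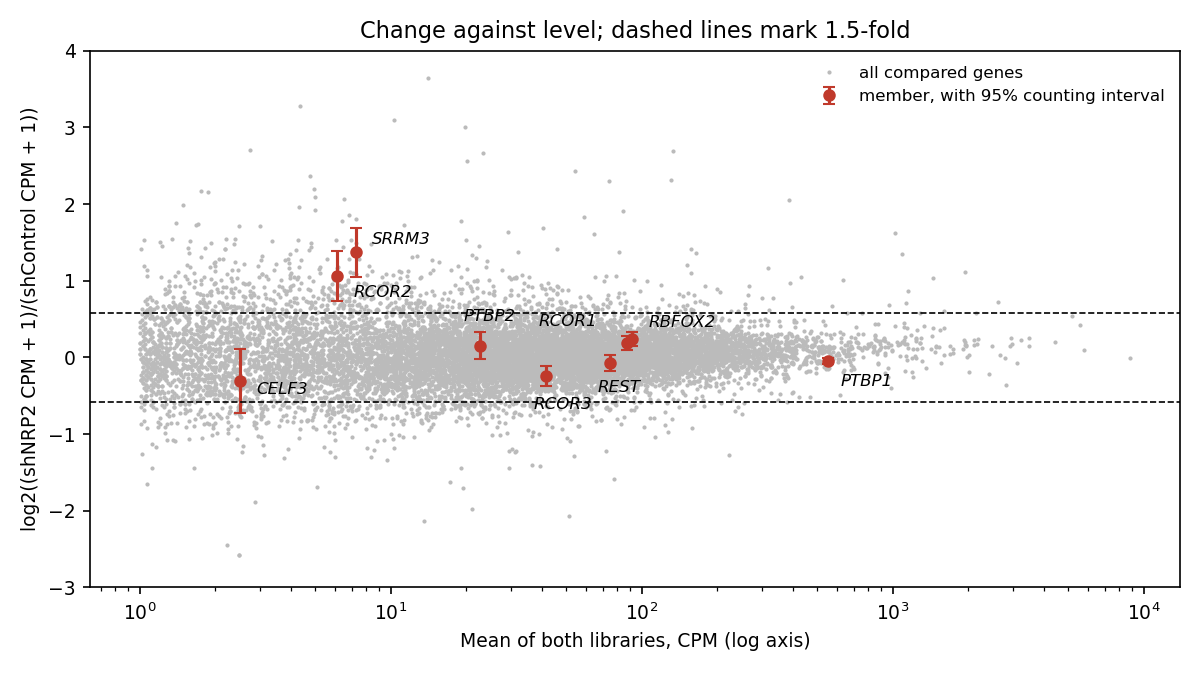
Log2 change between the shNRP2 and the shControl library (vertical axis) against mean CPM (log axis) for 13316 compared genes (grey) and the 9 compared members (red, with 95% counting intervals); 2 genes lie outside the drawn range. SRRM3 and RCOR2 lie above the upper dashed line at 1.5-fold, and the other 7 members lie between the dashed lines.

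Levels of different genes were compared per kilobase of the longest protein-coding transcript in GENCODE release 29. PTBP1 led with 147 CPM per kb in the shNRP2 library and 152 CPM per kb in the shControl library, and SRRM4 was last in both. Below PTBP1 came RCOR1, at 16.1 CPM per kb in the shNRP2 library and 14.1 CPM per kb in the shControl library, and then RBFOX2, at 14.3 CPM per kb in the shNRP2 library and 12.1 CPM per kb in the shControl library. REST was at 10.0 CPM per kb in the shNRP2 library and 10.5 CPM per kb in the shControl library, and its counting interval overlapped that of its neighbour RCOR3 in both. RCOR2 and SRRM3 were neighbours in both libraries, at 3.31 and 3.02 CPM per kb in the shNRP2 library and 1.38 and 0.997 CPM per kb in the shControl library, with overlapping intervals. In the shNRP2 library RCOR2 and SRRM3 stood above PTBP2, at 1.99 CPM per kb, and in the shControl library below it, at 1.78 CPM per kb, where the intervals of RCOR2 and PTBP2 overlapped. CELF3 was at 0.654 CPM per kb in the shNRP2 library and 0.885 CPM per kb in the shControl library. The order between the first and the last gene depends on the transcript taken as length. With the median length, an alternative chosen after seeing the data, RBFOX2, REST and RCOR3 preceded RCOR1, and PTBP2 stood above RCOR2 and SRRM3 in both libraries, at 7.83 CPM per kb in the shNRP2 library and 6.99 CPM per kb in the shControl library.

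Other regulators of tissue-specific splicing included a gene, NOVA2, with a log2 change as large as that of SRRM3, on few reads. Of 32 such genes, 22 were compared, of which 2 were higher, 1 lower and 19 neither, with a median log2 change of 0.06. These counts are near the 5.78% higher and 3.57% lower of all compared genes. NOVA2, a neuronal splicing regulator, had 58 reads in the shNRP2 library and 8 in the shControl library, which is 2.74 CPM in the shNRP2 library and 0.389 CPM in the shControl library. NOVA2 was 7.02-fold higher (3.34 to 17.0), with a log2 change of 1.43. Its mean passed the filter of 1 CPM only through the shNRP2 library, where it was high. RBM24, a splicing regulator of heart and skeletal muscle, was at 27.0 CPM in the shNRP2 library and 13.3 CPM in the shControl library, 2.03-fold higher (1.76 to 2.36). MBNL3, a muscleblind protein, was at 9.86 CPM in the shNRP2 library and 15.5 CPM in the shControl library, 1.57-fold lower (1.31 to 1.88). The other 10 genes of the list were under the filter, among them the neuronal genes ELAVL3 and ELAVL4, which had 4 and 2 reads in the shNRP2 library and 1 and 0 in the shControl library. ELAVL3 and ELAVL4 were chosen after their values were seen.

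Among 10 genes whose transcripts carry exons under neural splicing control, 1 was higher and 1 lower, with a median log2 change of -0.05, beside the same 5.78% and 3.57% over all compared genes. APBB1, an adaptor of the amyloid precursor protein, was at 59.2 CPM in the shNRP2 library and 33.1 CPM in the shControl library, 1.79-fold higher (1.63 to 1.97). DLG4, the postsynaptic scaffold PSD-95 whose transcript is destabilised by PTBP1 and PTBP2, was at 39.1 CPM in the shNRP2 library and 26.3 CPM in the shControl library. Its log2 change of 0.55 lay just inside 1.5-fold. These are levels of whole genes, so use of the exons was not measured.

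Neuronal genes described as REST targets, a list of 50 drawn up from general knowledge, held members past 1.5-fold in both directions. The list was drawn up with earlier results of these data known. Its counts therefore cannot show whether such genes differ from all genes. REST binding in these cells was not measured. Of the 50 genes, 24 were compared, with 5 higher, 2 lower and 17 neither, and 26 were under the filter, 6 of them at 0 reads in both libraries. The shares over all compared genes were 5.78% higher and 3.57% lower. Of the list, 1 gene was higher and 0 lower at 2-fold. The counts were again 1 and 0 at a pseudocount of 5 CPM, but the gene was a different one. The median log2 change was -0.03, with 11 above 0 and 13 below. L1CAM, a neural adhesion molecule, was at 3.63 CPM in the shNRP2 library and 1.27 CPM in the shControl library, 2.87-fold higher (1.82 to 4.66). MAPK8IP2, a scaffold of JNK signalling, was at 60.8 CPM in the shNRP2 library and 31.3 CPM in the shControl library, 1.94-fold higher (1.77 to 2.14). SCN8A, a voltage-gated sodium channel, was at 2.92 CPM in the shNRP2 library (62 reads) and 1.12 CPM in the shControl library (23 reads). KCNH2, a voltage-gated potassium channel, was at 8.30 CPM in the shNRP2 library and 4.48 CPM in the shControl library.

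The 2 lower genes of this list were TUBB3 and ATP6V1G2. TUBB3, neuronal beta-tubulin, was at 20.2 CPM in the shNRP2 library and 31.9 CPM in the shControl library, 1.58-fold lower (1.40 to 1.79). ATP6V1G2, a vacuolar ATPase subunit, was at 0.943 CPM in the shNRP2 library (20 reads) and 1.95 CPM in the shControl library (40 reads). Its mean passed the filter of 1 CPM only through the shControl library. The most abundant gene of the list, the synaptotagmin SYT4, was at 462 CPM in the shNRP2 library and 530 CPM in the shControl library, and was chosen after its value was seen.

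Of 18 neuroendocrine markers, 5 were compared, with 1 higher and 1 lower and a median log2 change of -0.03, beside 5.78% higher and 3.57% lower over all compared genes. ENO2, the enolase of neurons and of glycolysis, was at 211 CPM in the shNRP2 library and 91.3 CPM in the shControl library. NTS, the neuropeptide neurotensin, was at 2.78 CPM in the shNRP2 library and 4.92 CPM in the shControl library. NCAM1, a neural adhesion molecule, was at 1.46 CPM in the shNRP2 library and 2.19 CPM in the shControl library. All 18 markers together stood at 241 CPM in the shNRP2 library and 119 CPM in the shControl library, most of it ENO2. DLL3, a Notch ligand, was at 23.0 CPM in the shNRP2 library and 18.5 CPM in the shControl library. SYP, a synaptic vesicle protein, had 31 reads in each library. NEUROD1, FOXA2, PCSK1 and GRP were at 0 reads in both libraries. DLL3, SYP and the markers at 0 reads were chosen after their values were seen. The part of any of these cell states in the higher SRRM3 and RCOR2 was not tested.

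**Figure D4:**
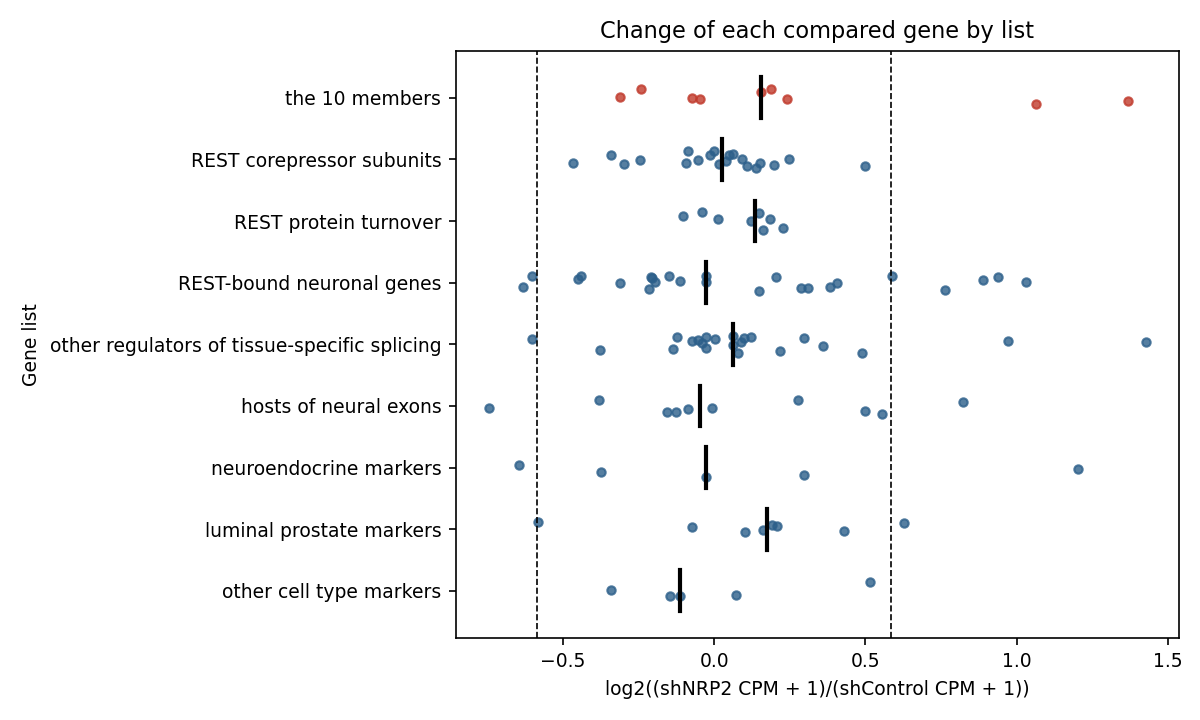
Log2 change between the shNRP2 and the shControl library for each compared gene of the 10 members (red) and of 8 other lists (blue), 1 point per gene, with black bars at list medians and dashed lines at 1.5-fold. SRRM3 and RCOR2 lie right of the dashed line at 1.5-fold higher, while all 20 corepressor subunits and all 8 genes of REST protein turnover lie between the lines.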

How the data were processed

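RNA from 1 shNRP2 and 1 shControl library of C4-2B ENZR cells was sequenced. The deposited signal per gene is, per the labels of the deposited tables, a count relative to library size that the authors scaled with TMM; it is called CPM here, although the columns sum to 1084413 in shNRP2 and 1024943 in shControl, more than the plain CPM that the design had assumed. The submitters' processing notes name hg19, edgeR, RSEM 1.2.15, Bowtie2 2.1.0 and bcl2fastq 2.17; no source used here gives their roles or the strand setting. In both libraries 100% of deposited values were whole multiples of 1 read within a tolerance of 0.01 read (0.0472 CPM in shNRP2, 0.0487 CPM in shControl), so reads were recovered.

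Comparison needed a mean over both libraries of at least 1 CPM and used a pseudocount of 1 CPM. CPM ratios carry Clopper-Pearson 95% intervals, levels Poisson intervals. A binomial test, exact and conditional on both libraries' recovered reads, with Benjamini-Hochberg adjustment, called 6954 of 13316 genes (52.2%) at an adjusted p under 0.05; it compares the libraries, not the conditions. Another 28 symbols turned into calendar dates name no gene; they held 0.184% of shNRP2 and 0.181% of shControl reads and were left out.

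The members and lists were chosen with earlier results of these data known. Named were the members, NRP2 and, from each list, up to 6 compared genes past 1.5-fold by size, or where fewer than 3 passed, the 3 with the largest change; others are marked. A gene that the rule names is not reported here. Some genes stand in more than 1 list. Alternatives were other pseudocounts, filters, scalings and thresholds. Calculations used Python 3.11.15, NumPy 2.4.6, SciPy 1.17.1 and pandas 2.3.3, and were tested on simulated data.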

Additional observations from a re-analysis of the deposited data

How the results depend on the processing

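SRRM3 and RCOR2 were the 2 members higher and 0 were lower under 9 of the 10 alternatives, namely the pseudocounts of 0.25 and 5 CPM, no filter, a mean of at least 5 CPM, quantile normalization, equal totals, log2 ratios centred on a median of 0, 2-fold and the counting interval. Under the exact binomial test on reads, which has no fold threshold, 4 members were higher (RCOR1, RCOR2, SRRM3, RBFOX2) and 2 lower (RCOR3, PTBP1). That test called 4028 of all compared genes higher (30.2%) and 2926 lower (22%), and 39 and 24 list genes. No filter, a mean of at least 5 CPM and the counting interval leave the log2 changes of SRRM3 and RCOR2 as they were, so these settings say little about those calls. The log2 change of SRRM3 ranged from 0.89 to 1.53 and that of RCOR2 from 0.66 to 1.20, lowest at a pseudocount of 5 CPM. With equal totals RCOR2 was at 0.989, just under 2-fold. No compared member changed sign. Over all genes, 329 were higher and 159 lower at a pseudocount of 5 CPM, 465 and 310 with a mean of at least 5 CPM, and 194 and 70 at 2-fold, where 10 higher and 5 lower list genes became 5 and 1, 7 and 3, and 3 and 0. No share was computed for the list genes together, so their counts do not show whether the lists differ from all genes. CELF3 gave no value with a mean of at least 5 CPM. No paired analysis was possible because each group has 1 library, and leaving a library out leaves no comparison. Counts limit SRRM4, NRP2, CELF3 and NOVA2.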
